A study of Mus musculus with 10 samples.

Results

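The keratin genes of the hair follicle and the genes that act beside them were followed across 10 libraries of whole mouse skin. The genes were taken by symbol from a list of 31, of which 30 matched a row of the count table and 1 hair shaft keratin was not analysed here. These 30 genes stand among 46078 counted genes. They comprise 7 keratins of the inner root sheath (Krt25 to Krt28 and Krt71 to Krt73), 12 keratins of the hair shaft (Krt31, Krt32, Krt33a, Krt33b, Krt34, Krt35, Krt36, Krt81, Krt82, Krt83, Krt84 and Krt86), 3 other follicle keratins (Krt75, Krt79 and Krt80), 3 genes for structural proteins and an enzyme (Tchh, Dsg4 and Padi3) and 5 transcription factor genes (Hoxc13, Foxn1, Msx2, Gata3 and Dlx3).

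Newborn specific-pathogen-free C57BL/6 mice received 100 µl of a suspension of Staphylococcus aureus SF8300 (SA, 5 libraries) or Staphylococcus epidermidis Tü3298 (SE, 5 libraries) on the skin, every other day from day 3 to day 19 of life. At day 21 the trunk skin was taken and lightly defatted, and RNA was extracted from an 8 mm punch of the back. Both groups were colonised, and no uncolonised skin was analysed here. The labels number the libraries 1 to 5 in each group and do not tie each to its own animal. The p-values here therefore cover only the variation among these 10 libraries, part of which may be technical.

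A hair follicle is a downgrowth of the epidermis in which concentric layers of epithelial cells surround a growing fibre. Keratin filaments are built from pairs of a type I and a type II keratin, and each layer uses its own pairs: the inner root sheath moulds the fibre as it forms and is shed higher up, whereas the hair keratins fill the cortex and cuticle of the shaft itself. Follicles pass through phases of growth, regression and rest, and sheath and shaft keratins are made by the lower part of growing follicles.

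The genes lie mostly in the mouse keratin gene clusters. On GRCm38, 13 of the 30 are on chromosome 11, where the type I cluster lies, and 12 on chromosome 15, where the type II cluster lies. The RefSeq promoter table of build GRCm38.p6 held a window from 250 bases before to 50 bases after the start for 21 of the 30 genes. No window was found there for Krt33a, Krt35, Krt81, Krt83, Krt86, Krt80, Dsg4, Hoxc13 and Dlx3. The 250 bases before the start are shown for a type II and a type I sheath keratin and for a pair of cortex keratins with a like profile across the libraries, each 5′ to 3′ on the minus strand, with the letters TATAAA in capitals. They are chr15:101743098-101743347 for Krt71, chr11:99322952-99323201 for Krt25, chr11:100050552-100050801 for Krt31 and chr11:100041555-100041804 for Krt34.
Krt71: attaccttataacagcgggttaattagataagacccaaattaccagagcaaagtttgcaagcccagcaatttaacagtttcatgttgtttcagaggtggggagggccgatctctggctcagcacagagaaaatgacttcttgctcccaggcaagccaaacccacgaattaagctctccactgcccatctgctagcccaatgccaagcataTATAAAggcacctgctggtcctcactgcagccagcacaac
Krt25: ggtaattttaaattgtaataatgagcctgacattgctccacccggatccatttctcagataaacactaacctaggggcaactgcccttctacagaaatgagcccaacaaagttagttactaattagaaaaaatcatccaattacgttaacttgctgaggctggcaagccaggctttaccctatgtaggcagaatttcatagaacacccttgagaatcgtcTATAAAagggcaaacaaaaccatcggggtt
Krt31: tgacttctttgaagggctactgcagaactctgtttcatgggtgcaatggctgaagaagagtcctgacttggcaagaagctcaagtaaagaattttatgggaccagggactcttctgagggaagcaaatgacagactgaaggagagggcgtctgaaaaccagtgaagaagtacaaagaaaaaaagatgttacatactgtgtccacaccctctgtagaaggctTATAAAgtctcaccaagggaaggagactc
Krt34: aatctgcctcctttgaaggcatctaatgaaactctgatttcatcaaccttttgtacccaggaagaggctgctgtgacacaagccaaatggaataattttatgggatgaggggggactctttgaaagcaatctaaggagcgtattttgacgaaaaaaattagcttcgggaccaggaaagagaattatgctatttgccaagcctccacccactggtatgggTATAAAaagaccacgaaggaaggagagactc
The first base of TATAAA lay 40 bases before the start in Krt71, 30 in Krt25, 29 in Krt31 and 31 in Krt34. Searched on both strands of the whole windows, TATAAA was found for 7 of 7 sheath keratins, 5 of 7 shaft keratins and 12 of the 21 genes, against 13.6% of all 32851 promoter windows. The letters AGATAA were in 4 of 7 sheath and 0 of 7 shaft windows (11.2% of all windows), CTTTGA in 1 of 7 and 4 of 7 (16.0%), and ACGC in 3 of 7 and 4 of 7 (55.3%). None of these motifs contains another, although their ends can share bases. A match is a description of the letters only.

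Several hair keratins are near-identical copies, which bears on how far their counts can be separated. In 7 of the 30 genes more than 20% of the 50-base windows of the transcript also occurred in another gene. The share was 43.53% for Krt81, 43.26% for Krt86, 33.08% for Krt34, 28.07% for Krt31, 24.22% for Krt33b, 23.19% for Krt83 and 21.91% for Krt33a, whereas no other of the 30 exceeded 11.13%. The longest coding stretch found in all of Krt81, Krt83 and Krt86 ran over 134 bases, 114 of them from exon 6 and the last 20, in capitals, from exon 7. In Krt81 the parts lie on the minus strand at chr15:101460621-101460734 and chr15:101460325-101460344 of GRCm38.
Krt81, Krt83 and Krt86: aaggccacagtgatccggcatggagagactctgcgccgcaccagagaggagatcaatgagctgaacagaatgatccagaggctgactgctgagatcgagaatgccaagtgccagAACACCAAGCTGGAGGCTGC
A read inside this stretch cannot be placed on 1 of the genes, and the levels of these 7 genes are uncertain for that reason. Exons on the opposite strand of another gene covered part of 4 genes, with 14.47% of the exonic length of Krt32 and at most 4.11% of Krt75, Krt80 and Gata3. Whether the counting used strand is not stated in these sources, and reads of these overlaps cannot be told apart.

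The libraries held between 21140654 and 25417851 reads on genes, 65.4% to 69.5% of all listed reads. The skin label was checked with epidermal keratins: Krt5 and Krt14 of the basal layer had means of 2850 ± 434 and 1510 ± 174 CPM in SA (SD, n = 5), and Krt1 and Krt10 of the suprabasal layers 1380 ± 198 and 3780 ± 374 CPM. CPM are counts scaled to a common library total with TMM normalization. A value given as RPKM is also divided by the exonic length in kilobases, which allows levels of different genes to be compared.

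Libraries SE 3, SE 4 and SE 5 differed from the other 7 across the transcriptome. Their scores on principal component 1 of all 16909 tested genes (45.2% of the variance) were 37.9, 41.8 and 54.3. The SA libraries lay between -32.5 and -9.34, and SE 1 and SE 2 at -28.1 and -21.9. The distance between the 3 libraries and the rest spanned 54.4% of the whole range. With the follicle genes and the related follicle lists taken out, 16845 genes remained, and the 3 libraries lay at 34.1, 40.4 and 48.7 with the other 7 between -30.8 and -5.90. The split was found in the data and is no group of the study, so it was not tested, and values of these 3 libraries are given library by library.

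**Figure D1:**
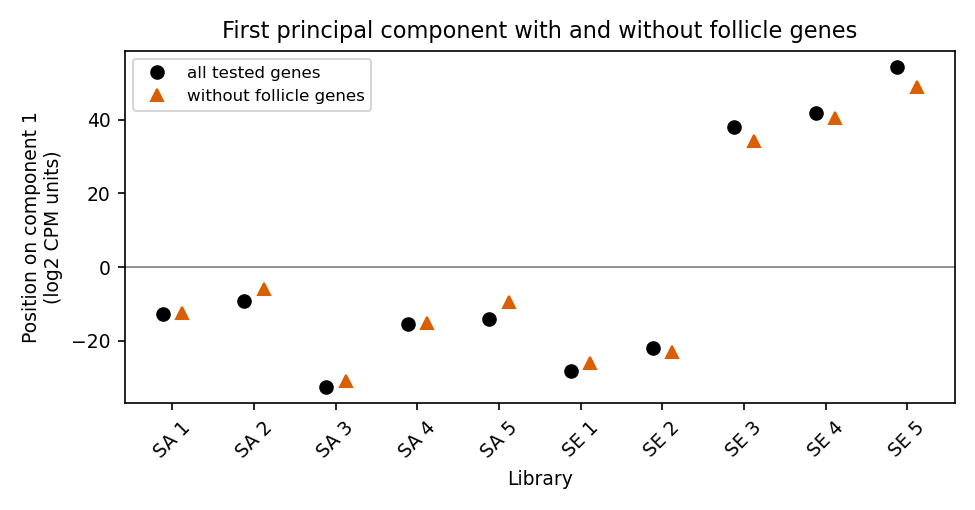
Position of each library on the first principal component of log2 CPM, with all 16909 tested genes and with the follicle genes left out (16845 genes). In both, SE 3, SE 4 and SE 5 lie on one side (34.1 to 54.3) and the SA libraries, SE 1 and SE 2 lie below 0.

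The inner root sheath keratins were low in the SA group and varied by orders of magnitude within the SE group. Krt71, the type II keratin of all sheath layers, was at 8.53, 1.36, 1.32, 10.6 and 0.566 CPM in SA 1 to SA 5 and at 1.85, 20.1, 198, 102 and 674 CPM in SE 1 to SE 5. SE 5 was highest, SE 3 and SE 4 followed, and SE 1 lay within the SA range, so the groups overlapped. The log2 fold change of Krt71, SA minus SE, was -5.49 ± 1.31 (SE of the estimate), and its adjusted p was 0.156 by edgeR's quasi-likelihood test with Benjamini-Hochberg adjustment over 16909 genes. In bulk tissue, fewer cells of a type and less RNA per cell cannot be told apart.

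Krt25 and Krt27 are type I keratins of the sheath that pair with Krt71. Krt25 was at 3.19, 0.396, 0.0438, 4.51 and 0.0404 CPM in SA and at 0.604, 11.7, 79.5, 41.1 and 270 CPM in SE 1 to SE 5. Krt27 was at 3.37, 0.704, 0.745, 4.60 and 0.525 CPM in SA and at 2.30, 8.96, 115, 52.7 and 405 CPM in SE. Both genes ranked SE 5, SE 3, SE 4 and SE 2 from the top, and in both SE 1 lay among the SA libraries. Their log2 fold changes were -5.65 ± 1.34 (edgeR adjusted p = 0.154) for Krt25 and -5.89 ± 1.27 (edgeR adjusted p = 0.121) for Krt27.

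Krt26, Krt72 and Krt73 belong to the cuticle of the sheath. Krt26 was at 0.844, 0.220, 0, 0.451 and 0 CPM in SA and at 0.846, 0.527, 25.8, 10 and 76.1 CPM in SE. Krt72 was at 1.36, 0.792, 0.219, 1.26 and 0.121 CPM in SA and at 0.201, 1.58, 25.2, 13.3 and 72.0 CPM in SE. Krt73 was at 1.73, 0.792, 0.482, 1.35 and 0 CPM in SA and at 0.282, 2.07, 25.4, 13.2 and 64.0 CPM in SE. In all of these cuticle keratins SE 1 lay at or near the level of the SA libraries, and SE 3, SE 4 and SE 5 lay at least 6.38-fold above the highest of the other 7 libraries. The log2 fold changes were -6.25 ± 1.40 for Krt26, -4.91 ± 1.21 for Krt72 and -4.60 ± 1.16 for Krt73, with edgeR adjusted p of 0.139, 0.167 and 0.168.

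Krt28, another type I keratin of the sheath, had a floor that the others lacked. It was at 4.83, 4.58, 5.17, 5.28 and 4.97 CPM in SA and at 5.36, 7.03, 17.5, 11.2 and 44.4 CPM in SE. Every SE library lay above every SA library, although SE 1 exceeded the highest SA library by little. This was the 1 gene of the 30 whose groups did not overlap, against 1.81% of the genes with at least 10 reads. Its log2 fold change was -1.78 ± 0.488 (edgeR adjusted p = 0.205), and -0.31 ± 0.164 without SE 3, SE 4 and SE 5 (edgeR adjusted p = 0.608).

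Among the shaft keratins, the cortex genes were near or below 1 CPM in all libraries but 3. Krt34, a type I keratin of the cortex, was at 0.516, 0.0880, 0, 0.677 and 0 CPM in SA and at 0.0403, 0.264, 14.0, 6.96 and 42.9 CPM in SE. Krt31, another type I cortex keratin, was at 0.422, 0.484, 0.263, 0.226 and 0.202 CPM in SA and at 0.0806, 0.483, 8.46, 3.98 and 19.6 CPM in SE. In both genes neither SE 1 nor SE 2 lay above the range of the SA libraries, and SE 5 was highest. The log2 fold changes were -5.66 ± 1.45 for Krt34 and -4.33 ± 1.09 for Krt31 (edgeR adjusted p = 0.174 and 0.168).

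Krt33a and Krt33b are further type I cortex keratins. Krt33a was at 1.36, 0.396, 0.219, 0.722 and 0.162 CPM in SA and at 0.282, 0.747, 16.9, 7.14 and 44.8 CPM in SE, with a log2 fold change of -4.62 ± 1.17 (edgeR adjusted p = 0.170). Krt33b had 843 reads in all, of which 182, 80 and 570 came from SE 3, SE 4 and SE 5 and no more than 5 from any other library. It was 1 of 4 genes that did not pass the low-count filter, and with no filter its log2 fold change was -6.29 ± 1.42 (edgeR adjusted p = 0.0909).

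The type II cortex keratins Krt81, Krt83 and Krt86, which share the stretch printed above, gave like profiles. Krt83 was at 0.656, 0.132, 0, 0.497 and 0.242 CPM in SA and at 0.0806, 0.352, 13.5, 6.13 and 35.8 CPM in SE, with a log2 fold change of -5.19 ± 1.31 (edgeR adjusted p = 0.168). Krt81 and Krt86 also missed the filter, with 14.7, 6.09 and 38.5 CPM and 14.2, 5.54 and 42.0 CPM in SE 3, SE 4 and SE 5 and no more than 0.396 and 0.844 CPM elsewhere. With no filter their log2 fold changes were -6.49 ± 1.36 and -5.25 ± 1.24 (edgeR adjusted p = 0.0818 and 0.110). Reads that did not align uniquely, 23.1% to 26.7% per library, were listed in a row that names no gene. Such reads from the shared stretches were therefore not counted on these genes. The part of the shared stretches in the like profiles was not tested.

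Krt84 and Krt36, hair-type keratins also known from the tongue, set SE 3, SE 4 and SE 5 farther from the other libraries than any sheath keratin did. Krt84 was at 0.469, 0.528, 0.877, 0.858 and 0.647 CPM in SA and at 0.0403, 1.01, 29.2, 26.4 and 125 CPM in SE, so that the lowest of the 3 libraries was 26.1 times the highest of the other 7. Krt36 was at 0.328, 0.924, 0.526, 0.226 and 0.283 CPM in SA and at 0.806, 0.220, 16.8, 12.7 and 56.4 CPM in SE. That lowest-to-highest ratio was 13.8 for Krt36, and 1.59 to 11.9 over the 7 sheath keratins. It was higher than for Krt36 in the cortex keratins Krt33b and Krt81, at 15.6 and 15.4. The log2 fold changes were -5.73 ± 1.35 for Krt84 and -5.23 ± 1.21 for Krt36, both with an edgeR adjusted p of 0.149.

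The shaft keratins of the cuticle and of the early shaft were less uniform. Krt35, a type I keratin of the lower cortex and cuticle, was at 1.78, 0.660, 2.15, 1.81 and 0.727 CPM in SA and at 0.161, 1.49, 7.17, 5.68 and 26 CPM in SE, a log2 fold change of -2.50 ± 0.888 (edgeR adjusted p = 0.344). Krt32, a type I cuticle keratin, was at 8.67, 4.80, 6.84, 5.01 and 5.50 CPM in SA and at 5.52, 4.70, 6.5, 6.59 and 10.1 CPM in SE. For Krt32 the groups overlapped throughout, SA 1 was above SE 3 and SE 4, and the log2 fold change was -0.12 ± 0.224 (edgeR adjusted p = 0.860). Krt82, the type II cuticle keratin, stayed at or below 0.406 CPM in 7 libraries and reached 1.83, 1.01 and 3.11 CPM in SE 3, SE 4 and SE 5. It missed the filter, and with no filter its log2 fold change was -2.02 ± 0.568 (edgeR adjusted p = 0.214).

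**Figure D2:**
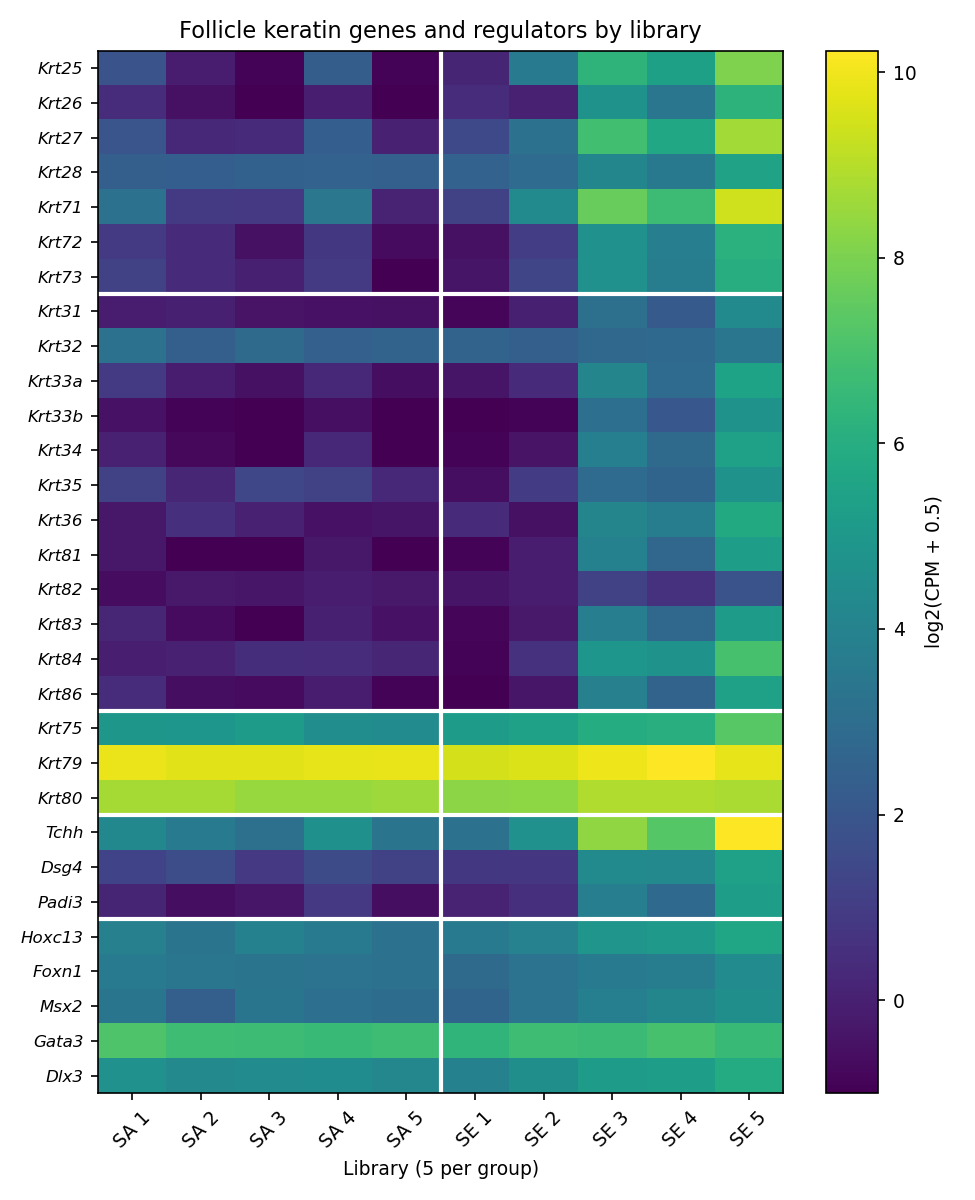
Level of each of the 30 genes, as log2(CPM + 0.5), in the 5 SA and 5 SE libraries; white lines part the groups and the gene classes. The sheath and most shaft keratins are bright in SE 3, SE 4 and SE 5, with SE 5 highest, while Krt79, Krt80, Krt32 and Gata3 vary little between libraries.

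Of the 3 other keratins, Krt75 varied most between libraries. Krt75, the type II keratin of the companion layer between the sheaths, was at 30.1, 29.6, 36.4, 22.3 and 21.0 CPM in SA and at 35.6, 42.2, 61.3, 65.7 and 159 CPM in SE. SE 1 was the only SE library below an SA library, and the log2 fold change was -1.38 ± 0.357 (edgeR adjusted p = 0.175). Krt79, known from the upper follicle and the ducts of the sebaceous gland, lay between 840 and 966 CPM in SA and between 728 and 1170 CPM in SE (log2 fold change -0.03 ± 0.121, edgeR adjusted p = 0.927). Krt80, found in many differentiating epithelia, was at 421, 424, 363, 359 and 388 CPM in SA and at 310, 315, 480, 471 and 446 CPM in SE (log2 fold change -0.05 ± 0.134, edgeR adjusted p = 0.903). For Krt80 the SE libraries lay on both sides of the whole SA range, with SE 1 and SE 2 below it and SE 3, SE 4 and SE 5 above it.

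The genes that harden the sheath had profiles like those of its keratins. Tchh encodes trichohyalin, the matrix protein of the inner root sheath and the medulla, and was at 18.7, 12.2, 8.33, 24.5 and 9.46 CPM in SA and at 8.62, 25.2, 330, 156 and 1200 CPM in SE. Padi3, the deiminase that modifies trichohyalin, was at 0.609, 0.176, 0.307, 1.31 and 0.162 CPM in SA and at 0.564, 0.967, 13.4, 6.59 and 38.2 CPM in SE. In both, SE 5 was highest and SE 1 lay within the SA range, and the log2 fold changes were -4.56 ± 1.09 and -4.54 ± 1.09 (edgeR adjusted p = 0.156 and 0.158). Dsg4, a desmosomal cadherin of the shaft, was at 1.87, 2.60, 1.32, 2.48 and 1.74 CPM in SA and at 1.29, 1.23, 20.1, 19.0 and 41.9 CPM in SE. SE 1 and SE 2 were the lowest 2 of the 10 libraries for Dsg4, and its log2 fold change was -3.06 ± 0.822 (edgeR adjusted p = 0.197).

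The transcription factor genes varied less than the structural genes. Hoxc13, a regulator of hair keratin genes, was at 14.5, 9.55, 14.9, 12.1 and 8.97 CPM in SA and at 11.7, 15.5, 28.5, 33.3 and 48.0 CPM in SE, a log2 fold change of -1.19 ± 0.332 (edgeR adjusted p = 0.215). Dlx3, a homeobox gene of the shaft and sheath lineages, was at 25.4, 19.1, 21.1, 21.3 and 17.6 CPM in SA and at 14.7, 23.3, 36.4, 37.3 and 59.4 CPM in SE (log2 fold change -0.71 ± 0.289, edgeR adjusted p = 0.406). In both genes SE 5 was highest, SE 4 second, and SE 1 lay within the SA range for Hoxc13 and below it for Dlx3.

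Msx2, a homeobox gene of the hair matrix, was at 9.75, 4.75, 9.69, 8.04 and 7.44 CPM in SA and at 5.64, 9.14, 13.8, 17.2 and 23.5 CPM in SE (log2 fold change -0.80 ± 0.331, edgeR adjusted p = 0.412). Foxn1, the gene mutated in nude mice, lay between 8.61 and 11.6 CPM in SA and at 6.89, 9.27, 12.2, 12.9 and 21.0 CPM in SE (log2 fold change -0.34 ± 0.242, edgeR adjusted p = 0.605). Gata3, needed for the inner root sheath lineage and also made by other skin cells, was at 140, 106, 104, 98.1 and 107 CPM in SA and at 81.2, 107, 99.1, 126 and 94.9 CPM in SE. For Gata3 the SE 3, SE 4 and SE 5 libraries lay among the others, and its log2 fold change of 0.13 ± 0.124 (edgeR adjusted p = 0.713) was the only positive one of the 26, where 51.7% of all tested genes were negative.

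Across SA and SE, 0 of the 26 genes that passed the low-count filter were past an adjusted p of 0.05 in edgeR's quasi-likelihood test, against 0.0769% of all tested genes. The filter asks for enough reads in at least 5 libraries, the size of 1 group, counted over both groups. A gene that was high in only 3 SE libraries could therefore miss it, as Krt33b, Krt81, Krt82 and Krt86 did. At an unadjusted p under 0.05, edgeR had 7 of 7 sheath keratins, 7 of 8 shaft keratins, 1 of 3 other keratins, 3 of 3 structural genes and 3 of 5 transcription factor genes, all lower in SA, against 6.53% of all tested genes. The median log2 fold change was -5.49 over the 7 sheath keratins, -4.90 over the 8 tested shaft keratins, -0.05 over the other keratins, -4.54 over the structural genes and -0.71 over the transcription factors, where the median of all tested genes was -0.01. A median over genes that passed the filter leaves out the 4 that did not, and over all 12 shaft keratins with no filter it was -5.17, and 0 of the 30 genes were past the threshold in that fit (0.0653% of its genes).

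DESeq2 on the same counts put 17 of the 26 genes past an adjusted p of 0.05, all lower in SA, against 0.972% of all genes it tested. These were Krt25, Krt26, Krt27, Krt71, Krt72, Krt73, Krt31, Krt33a, Krt34, Krt36, Krt83, Krt84, Krt75, Tchh, Dsg4, Padi3 and Hoxc13. Its fold changes were close to those of edgeR, such as -5.88 ± 1.15 for Krt27 (DESeq2 adjusted p = 0.000141) and -1.19 ± 0.323 for Hoxc13 (DESeq2 adjusted p = 0.0189). The call thus depended on the tool, while the direction was the same in both for all 26 genes. The authors' deposited table does not name its direction, and its signs were read as SA minus SE because they match the counts. In the authors' deposited table, 1 of the 30 genes was past 0.05, Hoxc13 with a log2 fold change of -0.65 and an adjusted p of 0.0212, against 1.15% of the genes with a value in that table. Krt75 followed in the authors' deposited table with -0.56 and an adjusted p of 0.0694, and Krt82 with -0.49 and 0.0750. Fold changes in that table are on a much smaller scale, such as -0.22 for Krt71 against -5.49 by edgeR here. Their sizes are therefore not comparable with those given here.

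Leaving out SE 1 or SE 2, the SE libraries with low levels of these genes, moved the edgeR count. Without SE 1, 19 of 27 genes were past the threshold (all lower in SA, against 0.737% of all tested genes), and without SE 2, 7 were: Krt26, Krt27, Krt36, Krt84, Tchh, Dsg4 and Padi3 (all lower in SA, 0.526%). Without any other library the edgeR count was 0. With SE 3, SE 4 and SE 5 left out, the count was 0 of 26, against 0.233% of all genes, and the median log2 fold change was -1.21 for the sheath and 0.34 for the shaft. All 7 sheath keratins had negative values in that fit, as did 50.4% of its genes, led by Krt25 at -1.90 ± 1.14 (edgeR adjusted p = 0.667) and Krt27 at -1.49 ± 0.735 (edgeR adjusted p = 0.572). Of the 8 tested shaft keratins, Krt36 was the only negative one, at -0.18 ± 0.636 (edgeR adjusted p = 0.962). SE 3, SE 4 and SE 5 were set apart in these same data and held the highest levels of most of these genes. A smaller difference without them follows from that choice, and nothing is read from it.

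**Figure D3:**
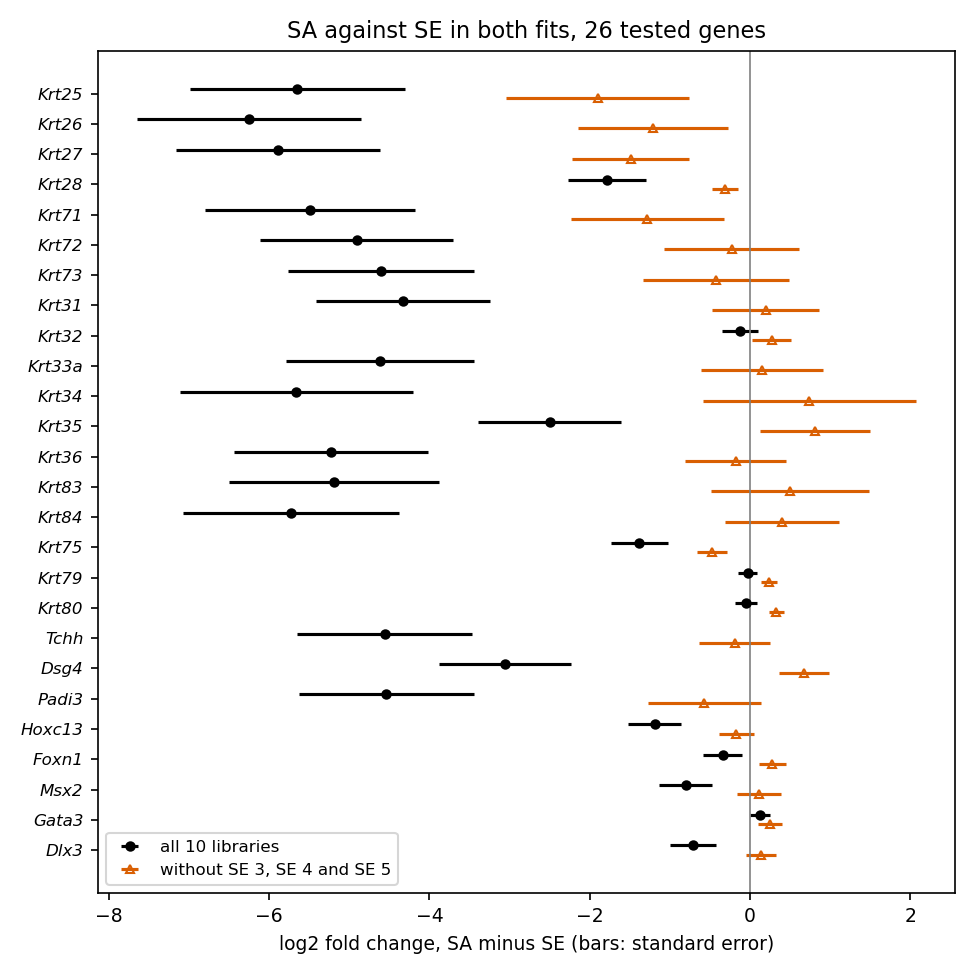
Log2 fold change, SA minus SE, of the 26 tested genes with its standard error, over all 10 libraries (black circles) and without SE 3, SE 4 and SE 5 (orange triangles). Krt71 lies at -5.49 in the first and at -1.28 in the second, and 7 of the 8 shaft keratins lie above 0 in the second.

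SE 3, SE 4 and SE 5 were all above the other 7 libraries for 27 of the 30 genes, the exceptions being Krt32, Krt79 and Gata3. The same held for 11.8% of all genes with at least 10 reads, and nothing is read from that contrast because the split came from the data. They were above by at least 2-fold for 20 genes (0.944% of those genes) and by at least 4-fold for 17 (0.615%). SE 5 was the highest of all 10 libraries for 27 of the 30 genes, against 16.2%. Among these 3 libraries, the order SE 5, SE 3, SE 4 held for 21 of the 30 genes, including all 7 sheath keratins and 11 of 12 shaft keratins. The order SE 5, SE 4, SE 3 held for 6, namely Krt32, Krt75, Hoxc13, Foxn1, Msx2 and Dlx3, and all 30 genes together took 0.267%, 0.248% and 0.516% of the gene reads in SE 3, SE 4 and SE 5 against 0.119% to 0.17% in the other 7.

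Inner root sheath and hair shaft were then compared within each library by their summed RPKM, so that both are levels per length. In 7 of the 12 shaft keratins 21.91% to 43.53% of the 50-base windows occurred in another gene, against at most 11.13% in any sheath keratin. Reads not aligned uniquely were left out while the full exonic length was used. The shaft sums may therefore be too low and the sheath to shaft ratios too high, which was not tested. The 7 sheath keratins summed to 12.4, 4.92, 4.62, 14.7 and 3.74 RPKM in SA 1 to SA 5 and to 6.39, 27.1, 247, 124 and 819 RPKM in SE 1 to SE 5. The 12 shaft keratins summed to 8.56, 4.72, 6.00, 5.97 and 4.44 RPKM in SA and to 4.18, 5.45, 77.6, 46.0 and 236 RPKM in SE. The group values were 8.07 ± 5.08 and 245 ± 335 RPKM for the sheath and 5.94 ± 1.63 and 73.7 ± 95.5 RPKM for the shaft in SA and SE (SD, n = 5 each), and the SD exceeded the mean in SE for both.

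The sheath to shaft ratio of these sums was 3.19, 2.69 and 3.48 in SE 3, SE 4 and SE 5, a narrow range beside that of the other libraries. It was 1.45, 1.04, 0.770, 2.47 and 0.842 in SA and 1.53 and 4.97 in SE 1 and SE 2. SE 2 had the highest ratio of all 10 libraries, with a sheath sum above every SA library and a shaft sum within the SA range. In low libraries Krt28 and Krt32 made up much of both sums: Krt28 took 16.0% to 81.8% of the sheath sum and Krt32 48.8% to 76.7% of the shaft sum in the 7 libraries, and at most 5.56% and 8.34% in SE 3, SE 4 and SE 5. Without Krt28 and Krt32 the ratio was 2.67, 1.08, 0.708, 3.75 and 0.544 in SA and 3.18, 8.37, 3.20, 2.78 and 3.45 in SE. SE 2 again had the highest ratio, and the low libraries rest on few reads, down to 31 sheath reads in SA 5 and 45 shaft reads in SE 1.

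**Figure D4:**
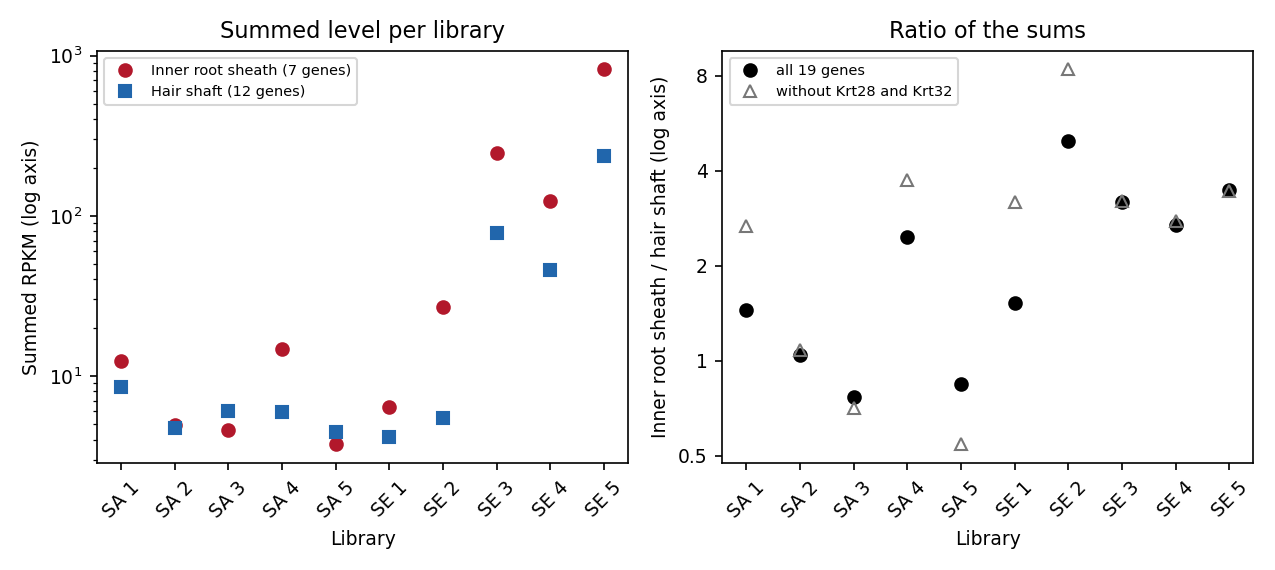
Left, summed RPKM of the 7 inner root sheath and 12 hair shaft keratins in each library on a log axis; right, the ratio of the sums, also on a log axis, with all 19 genes and without Krt28 and Krt32. Both sums are highest in SE 5 (819 and 236 RPKM), and SE 2 has the highest ratio (4.97 and 8.37).

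A few libraries held an intermediate position in some keratins of the sheath and of the shaft. The highest of the 7 other libraries was SE 2 for 6 of the 7 sheath keratins and for 2 of the 12 shaft keratins, and it was SA 1 for 5 of the shaft keratins. SE 2, SA 1 and SA 4 followed SE 3, SE 4 and SE 5 as the next 3 libraries for 5 of 7 sheath and 5 of 12 shaft keratins. The ranks of most shaft keratins rest on few reads. Krt34 had 11, 15 and 6 reads in SA 1, SA 4 and SE 2, where Krt71 had 182, 235 and 458. Whether sheath and shaft differ in these ranks was not resolved at this depth. Relative to the median of the other 7 libraries, the sheath sum was 38.7, 19.4 and 128 times as high in SE 3, SE 4 and SE 5, and the shaft sum 14.2, 8.43 and 43.2 times. Without Krt28 and Krt32 these values were 76.4, 37.8 and 256 for the sheath and 36.4, 20.8 and 113 for the shaft.

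Within the 3 high libraries the sheath keratins kept close proportions, and so did several cortex keratins. The SE 5 to SE 3 ratio of CPM lay between 2.52 and 3.51 over the 7 sheath keratins (median 2.95) and between 1.55 and 4.28 over the 12 shaft keratins (median 2.81). The SE 3 to SE 4 ratio lay between 1.57 and 2.58 over the sheath and between 0.986 and 2.56 over the shaft. Over the cortex keratins Krt31, Krt33a, Krt33b, Krt34, Krt81, Krt83 and Krt86, which share sequence, the ranges were no wider than in the sheath. They were 2.32 to 3.21 for SE 5 to SE 3 and 2.01 to 2.56 for SE 3 to SE 4. The low end of the shaft was Krt32 at 0.986, with Krt84 at 1.11, Krt35 at 1.26 and Krt36 at 1.32, and Dsg4 stood beside them at 1.06. For the 5 transcription factor genes it was 0.787 to 0.977, so all of them were lower in SE 3 than in SE 4.

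Per length, the most abundant of the 30 genes in SE 5 were Krt71 at 308 RPKM, Krt27 at 261 RPKM, Tchh at 207 RPKM, Krt79 at 192 RPKM and Krt25 at 136 RPKM. Krt71 made up 36.7%, 37.8% and 37.6% of the sheath sum in SE 3, SE 4 and SE 5, and Krt84 took 14.3%, 21.8% and 20.1% of the shaft sum.

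Other structural genes of the follicle, a list of 22 that includes further hair keratins, transglutaminases and desmosomal proteins, gave 0 calls among 17 tested by edgeR, where 13 had a negative and 4 a positive log2 fold change. Their median was -0.56, and 8 had an unadjusted p under 0.05, all lower in SA, against 6.53% of all tested genes. The smallest p belonged to Krt87, a hair keratin, at 0.340 ± 0.178 CPM in SA and 13.3 ± 17.4 CPM in SE (log2 fold change -5.28 ± 1.20, edgeR adjusted p = 0.144). Krt87 shares 50-base windows with Krt81, Krt83 and Krt86, and the part of this in its profile was not tested. Prr9 followed at 4.21 ± 2.04 and 137 ± 207 CPM (-5.03 ± 1.21, edgeR adjusted p = 0.158), and Tchhl1, which encodes a trichohyalin-like protein, at 0.724 ± 0.466 and 45.1 ± 73.2 CPM (-5.96 ± 1.46, edgeR adjusted p = 0.165). DESeq2 put Krt87, Prr9 and Tchhl1 past 0.05, all lower in SA (DESeq2 adjusted p = 0.00049, 0.0013 and 0.000934), against 0.972% of all genes it tested. In all of these the SD exceeded the mean in SE, and they were among the 17 of 22 genes with SE 3, SE 4 and SE 5 above the other 7 libraries (11.8% of genes with at least 10 reads). That count too uses a split taken from the data, and nothing is read from it.

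Among 23 other regulators of the follicle, which cover BMP, WNT and hedgehog ligands, receptors and transcription factors, 21 were tested and 0 were called by edgeR, with 17 negative and 4 positive values and a median of -0.21. An unadjusted p under 0.05 was reached by 5, all lower in SA, against the same 6.53% of all tested genes. Runx1, a transcription factor of follicle stem cells and their progeny, was at 28.5, 27.1, 28.2, 27.3 and 27.4 CPM in SA and at 29.5, 34.1, 50.3, 50.4 and 69.2 CPM in SE. All SE libraries were above all SA libraries for Runx1, the 1 gene of the 23 without overlap, against 1.81% of genes with at least 10 reads. Its log2 fold change was -0.75 ± 0.188 (edgeR adjusted p = 0.168). For Runx1 the DESeq2 adjusted p was 0.0152, and the adjusted p in the authors' deposited table was 0.0177. Hr, the hairless corepressor, was at 515 ± 36.1 CPM in SA and 715 ± 195 CPM in SE (-0.47 ± 0.165, edgeR adjusted p = 0.343), and the BMP receptor gene Bmpr1a at 204 ± 6.96 and 239 ± 37.0 CPM (-0.23 ± 0.0997, edgeR adjusted p = 0.434). Neither Hr nor Bmpr1a was past 0.05 in DESeq2 (DESeq2 adjusted p = 0.154 and 0.351). SE 3, SE 4 and SE 5 were above the other 7 libraries for 11 of these 23 genes, against 11.8% of genes with at least 10 reads, and nothing is read from this count since the split came from the data.

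Markers of other skin cells also differed between the libraries. The 8 genes of cycling cells summed to 274, 310 and 275 CPM in SE 3, SE 4 and SE 5 and to between 443 and 654 CPM in the other 7. All 8, among them Mki67 and Top2a, were lower in each of the 3 than in any other library, as were 8.63% of genes with at least 10 reads. The split came from these same data, so nothing is read from that count. By group the cycling cell sum ranged from 443 to 654 CPM in SA and from 274 to 637 CPM in SE. The sebaceous gland list summed to between 3450 and 3800 CPM in the 3 libraries and between 4890 and 6970 CPM in the rest, and to 6290 to 6970 CPM in SA against 3450 to 5060 CPM in SE. The sum is mostly that of Scd1 and Fasn, enzymes of fatty acid synthesis, and the 8 genes of the list were split. Only Scd1, Fasn and Elovl3 were lower in each of the 3 libraries than in any other, and the remaining 5 overlapped the rest, with Awat2 at 73.2, 96.5 and 59.1 CPM in SE 3, SE 4 and SE 5 and 43.7 to 94.9 CPM elsewhere. Scd1 was at 4250 ± 220 CPM in SA and 2780 ± 507 CPM in SE (log2 fold change 0.61, edgeR adjusted p = 0.108), while Awat2 and Mc5r had negative values of -0.03 and -0.21 (edgeR adjusted p = 0.968 and 0.780). Fasn, Elovl3, Awat2 and Mc5r were picked after their values were seen. The part of these differences in the follicle values was not tested.

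For most other lists the ranges overlapped. The basal epidermis list summed to 8610 to 11600 CPM in SA and 7560 to 13100 CPM in SE, the suprabasal list to 8420 to 11100 and 6680 to 9390 CPM, and the melanocyte list to 142 to 179 and 130 to 227 CPM. All 8 suprabasal genes had positive log2 fold changes (median 0.21), and edgeR called 0 of them. With no filter edgeR called 1, Ivl (edgeR adjusted p = 0.0413, and 0.0726 with the filter), against 0.0653% of all genes in that fit. Ivl was picked after its values were seen. Dermal fibroblasts ranged from 36700 to 64500 CPM in SA and 37100 to 68100 CPM in SE, adipocytes from 886 to 1140 and 746 to 1180 CPM, and skeletal muscle from 12700 to 22800 and 12700 to 24100 CPM. The skeletal muscle sum was 14700, 12700 and 12700 CPM in SE 3, SE 4 and SE 5. It was 12700 CPM in SA 2 and between 17800 and 24100 CPM in the rest. The dermal papilla list summed to 157 to 196 CPM in SA and 137 to 183 CPM in SE, but its first genes went opposite ways. Corin was at 20.1, 15 and 22.0 CPM in SE 3, SE 4 and SE 5 and no higher than 3.88 CPM elsewhere, whereas Wif1 was at 8.06, 9.84 and 7.36 CPM there and no lower than 18.1 CPM elsewhere. None of the marker genes of these lists was at 0 in every library, and their part in the follicle values was likewise not tested.

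**Figure D5:**
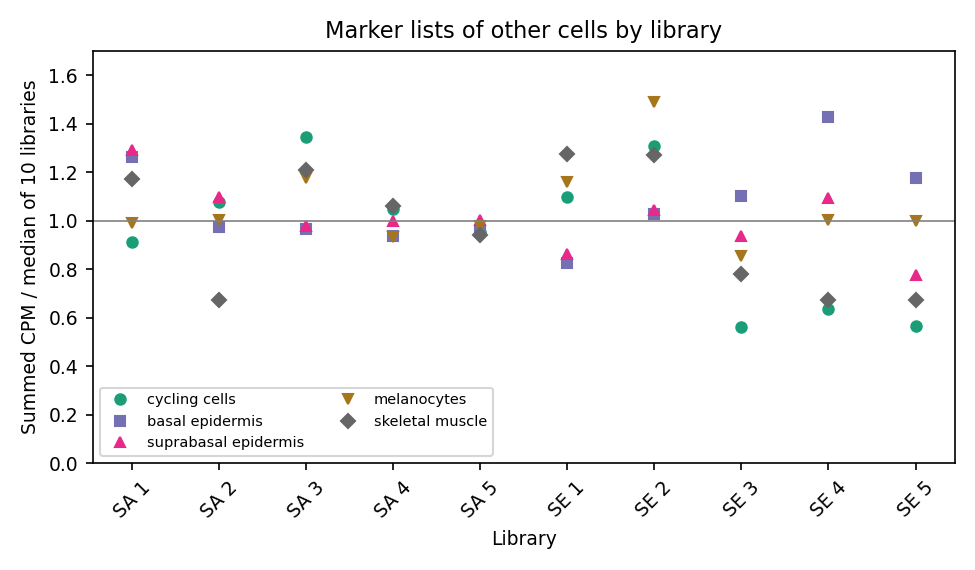
Summed CPM of marker lists in each library, divided by the median of the 10 libraries. The cycling cell list is lowest in SE 3, SE 4 and SE 5 (274 to 310 CPM against 443 to 654 CPM), whereas the basal epidermis list is highest in SE 4.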

How the data were processed

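Reads on genes were analysed for 10 whole skin libraries, grouped and numbered by their titles. The deposited counts are whole reads per Ensembl gene. The submitters' processing notes name HTSeq 0.6.1p1, STAR 2.4.2a, SAMtools and DESeq2 and the builds GRCm38 and mm10. Which annotation was used, in which mode reads were counted and whether strand was used were not stated there. A deposited table of the authors' comparison holds mean normalized counts (a signal), log2 fold changes, a score (the test statistic) and p-values, which entered no test here. Rows that name no gene (no feature 3.06% to 6.59%, ambiguous 3.1% to 3.4%, not unique 23.1% to 26.7% of reads per library) were left out.

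Counts were fitted with edgeR 4.0.16 (R 4.3.3): filterByExpr with a minimum count of 10, TMM scaling, and the two-sided quasi-likelihood test of SA against SE without covariates, with Benjamini-Hochberg adjustment over 16909 genes and a threshold of 0.05. Fold changes use a prior count of 0.125. The biological coefficient of variation was 18%. The fit was tested on simulated data. Alternatives used other scalings and filters, DESeq2 1.42.0, voom in limma 3.58.1, a replicate block and fewer libraries. Replicate pairs differed by more than sampling noise (chi-square per degree of freedom 5.40 to 41.6 in SA and 15.9 to 91.8 in SE). Gene lengths, coordinates and shared sequence came from GENCODE on GRCm38, promoters from RefSeq.

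The members and lists were chosen with earlier results of these data known. Named were every member, in each other follicle list the genes past the threshold or else the 3 with the smallest p, and up to 2 defining genes per cell type list. Proteins were not used here.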

Additional observations from a re-analysis of the deposited data

Results flagged for a closer look

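Gata3 in SA 1 stood apart from the other SA libraries, at 140 CPM with the next library at 107 CPM. The gap took 0.757 of the range of the 5 libraries on the log2(CPM + 0.5) scale, above Dixon's critical value of 0.71. It was the 1 such case in 60 sets of 5 libraries, where chance gives about 1 in 20.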

How the results depend on the processing

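No member was past the threshold in edgeR under either other scaling, either other filter or limma voom; DESeq2 called 17, all lower in SA. Leaving out each library in turn gave 0 to 19 members called, all lower in SA. The median log2 fold change ranged from -6.10 to -4.17 for the sheath and from -5.51 to -3.74 for the shaft over those fits, and the shaft median was -3.06 with voom and -1.31 with at least 1 CPM in 5 libraries, a filter that left 2 shaft keratins. Without SE 3, SE 4 and SE 5 the medians were -1.21 (sheath) and 0.34 (shaft).

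Of 460 gene values over 18 alternatives, 401 kept direction and side of the threshold, 42 newly passed it and 17, of 13 genes, changed sign. Without SE 3, SE 4 and SE 5 those were Krt31 0.20, Krt32 0.27, Krt33a 0.15, Krt34 0.74, Krt35 0.81, Krt83 0.50, Krt84 0.40, Krt79 0.24, Krt80 0.33, Dsg4 0.67, Foxn1 0.28, Msx2 0.11 and Dlx3 0.14. Leaving out each library in turn, Krt32 ranged from -0.27 to 0.08 (without SE 5), Krt79 from -0.10 to 0.07 (without SE 4) and Krt80 from -0.13 to 0.03 (without SE 3), with 0.02 without SE 4. The cause was not tested.

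Deviations of same-numbered libraries correlated at -0.26, -0.29, -0.13, -0.11 and 0.07, and no same-numbered pair was a best match in both directions. The SE libraries differed widely among themselves, which could hide a pairing. Whether the shared replicate numbers pair the libraries was therefore not resolved. With the replicate block, 0 members and 10 of 16909 genes were called, with medians of -4.50 (sheath) and -3.83 (shaft). Counts below 1 CPM rest on few reads, so differences among low libraries were not resolved at this depth.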
